A study of Mus musculus with 5 samples.

Results

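The enzymes that make cholesterol and fatty acids were examined across 5 RNA-Seq libraries of cultured mouse neural stem/progenitor cells (NSPCs), together with the proteins that sense and move sterols. The group holds 37 genes of the 12588 symbols or identifiers in the deposited table. The 37 are 18 enzymes of sterol synthesis, 5 genes of the sterol sensor, 4 sterol transport genes, 3 fatty acid synthesis genes and 7 genes of fatty acid desaturation, elongation and activation. The group was chosen because the sterol genes all read higher in the libraries labelled p75NTR-/- than in those labelled WT. The difference between the labels is therefore given for the 37 genes as a description, without a test.

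RNA was sequenced from NSPCs of C57BL/6J mice, with 2 libraries labelled WT (numbered 1 and 4, littermates) and 3 labelled p75NTR-/- (numbered 1, 2 and 4), from mice with a constitutive knockout of the p75 neurotrophin receptor. Cells of both labels grew without further treatment in Neurobasal-A medium with B-27, FGF-2 at 20 ng/ml and EGF at 20 ng/ml. The labels give the cells as embryonic (E12.5), and the methods of the study describe adult subventricular zone cultures. The study describes 4 RNA-Seq replicates from separate NSPC preparations, whereas 2 WT and 3 p75NTR-/- libraries were available here. The labels do not tie the libraries to cultures or animals, and the p-values below measure the spread between these libraries.

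Ngfr, which encodes the receptor, read 0.98 and 2.08 normalized counts (counts divided by the size factor of the library) in WT 1 and WT 4, against 9.89, 141 and 251 in p75NTR-/- 1, 2 and 4. The gene thus read higher under the knockout label. The allele the study cites alters part of the gene and can still be transcribed, so these sums do not check the genotype. That does not account for the 1 and 2 counts under the WT label. Whether labels were exchanged between libraries was not tested, and the sign of every difference below rests on the labels as given. The libraries held 11688211 to 14452396 recovered counts, p75NTR-/- 2 the fewest. Of 7 microglial markers, 0 were among the listed genes. Nes and Fabp7, 2 of 10 progenitor markers, read at least 8704 and 35613 normalized counts in every library. Others of that list were low, such as Sox1 at 38.6 to 100 and Prom1 at 17.8 to 80.3. Of the astrocyte markers, Aldh1l1 and Slc1a3 read at least 16444 and 11597 in every library, and Gfap as little as 1.20. All levels are from whole cultures, in which fewer cells of a type and less RNA per cell cannot be told apart.

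Cells build cholesterol from acetyl-CoA through mevalonate, isoprenoid pyrophosphates, squalene and lanosterol. The genes of these steps are switched on together by SREBP transcription factors, which sit in the endoplasmic reticulum with their escort Scap, are held there by Insig proteins when sterols are plentiful and are cut free when sterols run low. SREBP proteins bind sterol regulatory elements in promoters, usually beside the general factors NF-Y and Sp1. Oxysterols act in the other direction through liver X receptors, which raise cholesterol export genes such as Abca1 and Apoe. The brain makes its own cholesterol, since lipoproteins of the blood do not cross into it, and dividing cells need sterols and fatty acids for new membrane.

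The promoters of 4 genes are shown. Hmgcs1 is the 1 matched gene of the group with the core of the sterol element, Hsd17b7 and Abca1 had the largest positive and negative difference between the labels, and Sc5d holds the other 2 elements that were searched. Each run is part of a RefSeq promoter window on build GRCm38.p6, 5′ to 3′ on the strand of the gene. It is the stretch upstream of the first start annotated in RefSeq or GENCODE. Capitals mark CCAAT or its reverse complement ATTGG (the NF-Y box), CACGTG (an E-box) and TCACNCCAC (the core of the sterol regulatory element). Hmgcs1 is given for chr13:119690101-119690350 (plus strand), Sc5d for chr9:42264301-42264550 (minus strand), Hsd17b7 for chr1:169969242-169969455 (minus strand) and Abca1 for chr4:53159896-53160145 (minus strand).
Hmgcs1: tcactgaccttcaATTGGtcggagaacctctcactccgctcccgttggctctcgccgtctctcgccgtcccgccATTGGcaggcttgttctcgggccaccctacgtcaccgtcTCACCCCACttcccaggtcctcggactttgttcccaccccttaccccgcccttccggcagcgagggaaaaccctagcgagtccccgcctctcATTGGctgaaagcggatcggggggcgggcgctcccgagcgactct
Sc5d: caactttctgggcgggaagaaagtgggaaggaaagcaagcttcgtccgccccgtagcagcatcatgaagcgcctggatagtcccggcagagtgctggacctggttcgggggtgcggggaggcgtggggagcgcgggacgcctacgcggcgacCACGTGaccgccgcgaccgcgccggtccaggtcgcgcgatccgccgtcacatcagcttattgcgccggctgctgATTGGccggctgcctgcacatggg
Hsd17b7: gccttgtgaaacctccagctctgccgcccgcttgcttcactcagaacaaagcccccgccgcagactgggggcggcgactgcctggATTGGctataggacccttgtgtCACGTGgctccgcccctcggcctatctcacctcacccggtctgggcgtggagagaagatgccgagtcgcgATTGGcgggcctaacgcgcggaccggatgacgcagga
Abca1: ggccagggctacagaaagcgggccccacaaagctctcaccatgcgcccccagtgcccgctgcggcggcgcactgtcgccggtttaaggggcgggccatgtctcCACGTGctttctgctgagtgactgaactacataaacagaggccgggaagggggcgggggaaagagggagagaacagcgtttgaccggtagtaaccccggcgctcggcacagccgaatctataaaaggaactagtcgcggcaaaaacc

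Hmgcs1, the enzyme that makes hydroxymethylglutaryl-CoA, has the sterol element core from -137 to -129 relative to the RefSeq start site, between NF-Y boxes from -176 to -172 and from -45 to -41. Sc5d and Hsd17b7 each have an E-box and at least 1 NF-Y box in the window and no sterol element core. The printed run of Hsd17b7 stops short of its RefSeq start site, and a further NF-Y box, from -12 to -8, lies outside the run. Abca1 has an E-box from -147 to -142 and no NF-Y box. Windows of 250 bases before to 50 bases after the start were in the table for 29 of the 37 genes, in 37 windows, since 5 genes have several. Fads1, Stard4, Scd1, Scd2, Sqle, Npc1, Fdps and Fdft1 were not matched.

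An NF-Y box on either strand was present for 23 of the 29 matched genes (79.3%), against 43.8% of the 8569 matched genes of mean 50 or more and 41.1% of all 27025 symbols. Of the 15 matched sterol enzymes, 14 had one (93.3%), and of the 14 other matched genes 9 (64.3%). The E-box was present for 7 of 29 (24.1%), against 12.2% of the genes of mean 50 or more. The 95% binomial interval of the E-box share, 10.3% to 43.5%, includes that background. The sterol element core was present for 1 of 29, Hmgcs1, against 1.44% of all symbols, with its letters searched strictly and on both strands. A match of letters is a description of the window and was not tested for binding.

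**Figure D1:**
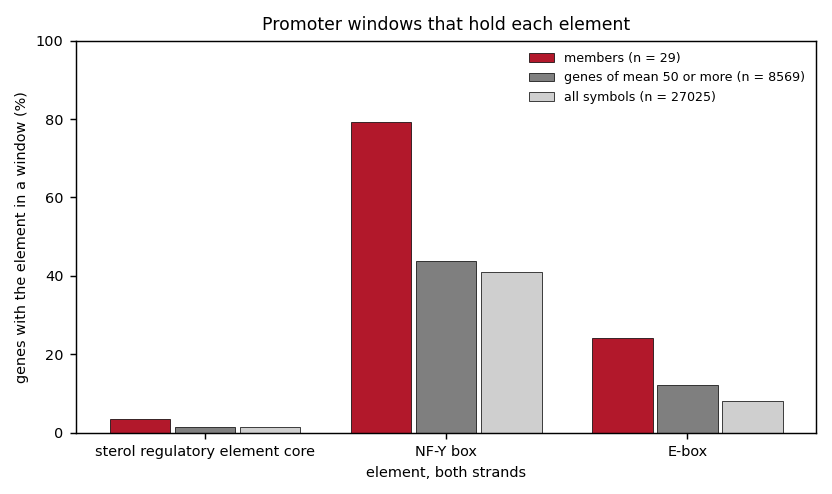
Share of genes (y axis, %) whose promoter window holds each of 3 sequence elements on either strand (x axis), for the 29 matched genes of the group, the 8569 matched genes of mean 50 or more and all 27025 symbols of the table. The NF-Y box stands at 79.3%, 43.8% and 41.1%, and the sterol element core is rare in all 3 sets.

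Levels between genes were compared per transcript length, as TPM summed per gene. The order ran from Scd2, a stearoyl-CoA desaturase, with a mean of 1218 TPM, through Hmgcs1 with 599.8 TPM, Npc2, a lysosomal cholesterol carrier, with 479 TPM and Msmo1 with 324 TPM, down to Acaca with 16.9 TPM and Hsd17b7 with 14.6 TPM. Scd2 was the 1 gene whose 5 values all lay above every value of the next gene. In the other neighbouring pairs of this order the ranges over libraries overlapped. The 18 sterol enzymes together made up 1855 and 1773 TPM in WT 1 and WT 4 and 3278, 3359 and 2048 TPM in p75NTR-/- 1, 2 and 4.

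**Figure D2:**
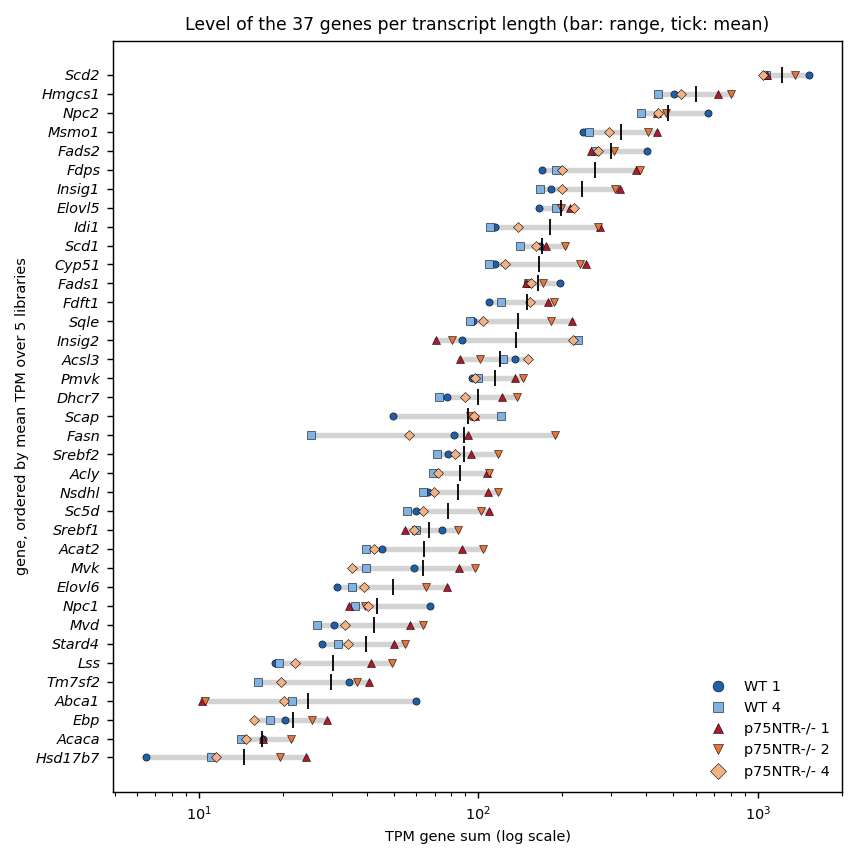
TPM summed per gene (x axis, log scale) for the 37 genes, ordered by their mean over 5 libraries (y axis). Points are libraries, grey bars the range and black ticks the mean, and the means run from 1218 TPM for Scd2 to 14.6 TPM for Hsd17b7.

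Below, a gene's level is the sum of its transcripts' normalized counts. Its log2 difference is the mean of log2(sum + 1) over the 3 libraries labelled p75NTR-/- minus that over the 2 labelled WT. The standard error (SE) beside it is the moderated one of limma, in which the variance of a gene is drawn toward that of all genes. Values follow the order WT 1 and WT 4, then p75NTR-/- 1, 2 and 4. All 18 sterol enzymes had a positive log2 difference over the 5 libraries, with a median of 0.63, and without WT 4 that of Tm7sf2 was -0.10. Over the 37 genes, 28 had a positive difference (background 52.6% of the 10786 genes of mean 50 or more) and 9 a negative one (background 47.4%), and the median was 0.47, against 0.02 over all 10786. Leaving out 1 library at a time gave medians from 0.28 without p75NTR-/- 2 to 0.62 without p75NTR-/- 4. The labels did not overlap, with all 3 p75NTR-/- values above both WT values, for 18 of the 37 (background 7.76%), and for 1 gene, Abca1, all 3 lay below (background 6.96%). Within the label p75NTR-/-, libraries 1 and 2 stood apart from library 4. For 25 of the 37 genes, all 18 sterol enzymes among them, p75NTR-/- 1 and 2 were the 2 highest of the 5 libraries (background 22.8%). For 3 genes, Insig2, Abca1 and Acsl3, they were the 2 lowest (background 19.4%).

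**Figure D3:**
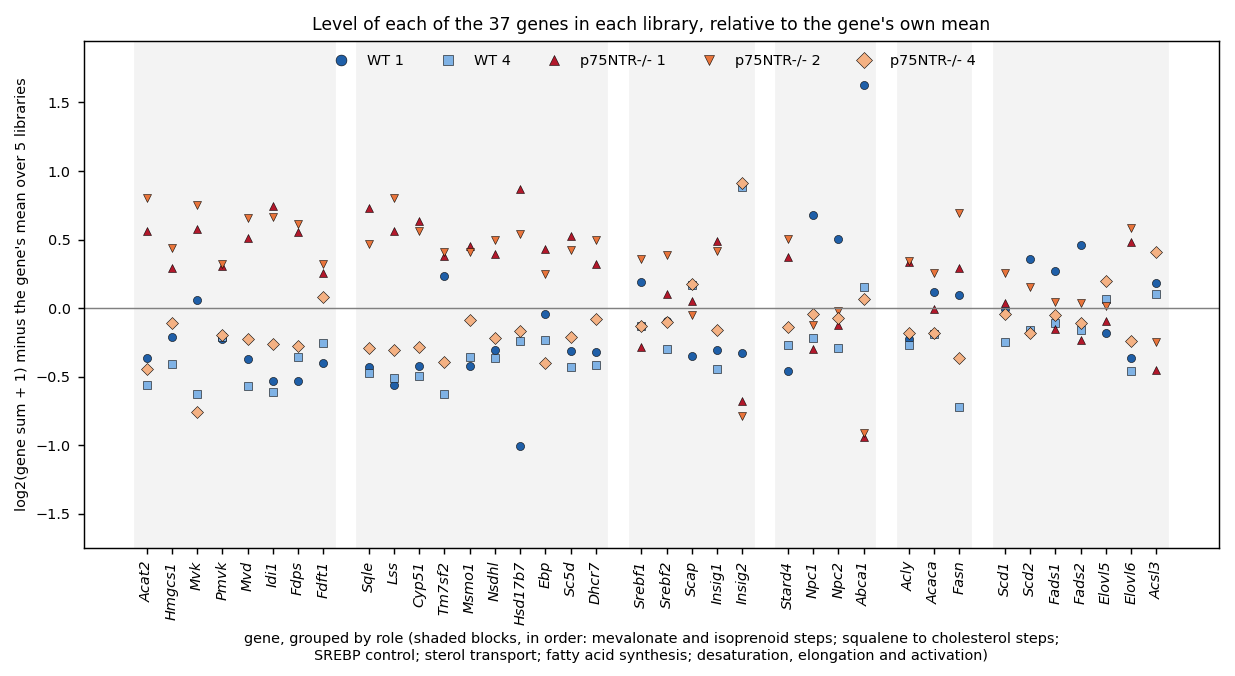
Each of the 37 genes (x axis, shaded blocks by role) in each library, as log2(gene sum + 1) minus the gene's own mean over 5 libraries (y axis). Each point is 1 library. In the blocks of the sterol enzymes p75NTR-/- 1 and 2 lie at the top and WT 1, WT 4 and p75NTR-/- 4 below, and Insig2, Abca1 and Acsl3 show the reverse for p75NTR-/- 1 and 2.

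The 8 genes that lead from acetyl-CoA to squalene had a median log2 difference of 0.64. Acat2, the cytosolic thiolase that joins acetyl-CoA units, read 1140.3 and 990.3 (WT) and 2162, 2554 and 1078 (p75NTR-/-), a log2 difference of 0.77 ± 0.41 (SE). Its value in p75NTR-/- 4 lay between those of WT 4 and WT 1, so the labels overlapped. Hmgcs1 was the most abundant of the sterol enzymes, with 17428 and 15232 (WT) and 24801, 27370.5 and 18722 (p75NTR-/-), a log2 difference of 0.52 ± 0.23 (SE). All 3 values labelled p75NTR-/- lay above both WT values, and the value of p75NTR-/- 4 was the nearest to them. Mvk, the mevalonate kinase, read 805 and 498 (WT) and 1149, 1299 and 455 (p75NTR-/-), a log2 difference of 0.47 ± 0.54 (SE). The lowest Mvk value was thus in a library labelled p75NTR-/-, number 4, and p75NTR-/- 2 exceeded it 2.85-fold. Leaving out 1 library moved the Mvk difference between 0.13 (without WT 4) and 0.95 (without p75NTR-/- 4).

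Pmvk, the next kinase of the path, was 634 and 639 (WT) and 913, 925 and 647 (p75NTR-/-), a log2 difference of 0.36 ± 0.22 (SE). The value of p75NTR-/- 4 exceeded that of WT 4 by a factor of 1.01 only. Mvd, which decarboxylates mevalonate pyrophosphate, gave 642 and 559.7 (WT) and 1187, 1313 and 712 (p75NTR-/-), a log2 difference of 0.79 ± 0.31 (SE). Idi1, the isomerase that makes the activated isoprene unit, lies on chr13:8885501-8892451 (plus strand). It read 1696 and 1607 (WT) and 4105, 3896 and 2044 (p75NTR-/-), a 2.03-fold ratio of the label means and a log2 difference of 0.95 ± 0.36 (SE), the second largest of the group. Both genes were free of overlap between the labels, and p75NTR-/- 1 and 2 were well above p75NTR-/- 4.

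Fdps, the farnesyl pyrophosphate synthase, read 3244 and 3657 (WT) and 6886, 7169.7 and 3860.2 (p75NTR-/-), a log2 difference of 0.74 ± 0.33 (SE). Within number 4 the ratio was 1.06, and within number 1 it was 2.12. Fdft1, squalene synthase, was the sterol enzyme with the steadiest values among the 3 libraries labelled p75NTR-/- relative to their mean. It read 2902 and 3223 (WT) and 4580.2, 4805 and 4053 (p75NTR-/-), a log2 difference of 0.55 ± 0.17 (SE), and the labels did not overlap.

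The 10 enzymes from squalene to cholesterol had a median log2 difference of 0.63, and 8 of them showed no overlap between the labels. Sqle, the squalene epoxidase that commits squalene to sterols, read 3646 and 3523 (WT) and 8120.4, 6785 and 3998 (p75NTR-/-), a log2 difference of 0.75 ± 0.34 (SE). Lss, which closes the rings to lanosterol, read 926 and 959 (WT) and 2015, 2381 and 1105 (p75NTR-/-), a log2 difference of 0.89 ± 0.37 (SE). Cyp51, the lanosterol demethylase, read 3806 and 3604 (WT) and 7915, 7528 and 4178 (p75NTR-/-), a log2 difference of 0.76 ± 0.33 (SE). In all 3 genes p75NTR-/- 1 and 2 were far above the rest, and p75NTR-/- 4 stood just above both WT values.

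Tm7sf2, a sterol reductase, differed from this pattern in WT 1, which at 684 lay close to the 757 and 774 of p75NTR-/- 1 and 2. WT 4 and p75NTR-/- 4 were lower, with 378 and 444, and the log2 difference was 0.33 ± 0.39 (SE). It became -0.10 without WT 4 and 0.76 without WT 1. Msmo1, the methylsterol monooxygenase, read 2651 and 2783 (WT) and 4862, 4736 and 3359 (p75NTR-/-), a log2 difference of 0.65 ± 0.23 (SE). Nsdhl, which removes the carboxyl group left by Msmo1, read 1509 and 1445 (WT) and 2446, 2629 and 1605 (p75NTR-/-), a log2 difference of 0.56 ± 0.27 (SE). Neither Msmo1 nor Nsdhl overlapped between the labels.

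Hsd17b7, the ketosteroid reductase that completes demethylation, lies on chr1:169949535-169969241 (minus strand) and had the largest positive log2 difference of the group, 1.04 ± 0.40 (SE). It read 133 and 228 (WT) and 492, 393 and 239.8 (p75NTR-/-). WT 1 was the lowest and p75NTR-/- 1 the highest library, and the ratio was 3.68 within number 1 and 1.05 within number 4. Leaving out 1 library at a time moved the log2 difference between 0.65 and 1.42. Ebp, the sterol isomerase, had the smallest difference of the sterol enzymes, 0.23 ± 0.30 (SE). Its lowest value, 205, was in p75NTR-/- 4, below 262 and 229.9 in the WT libraries, with 364 and 321 in p75NTR-/- 1 and 2.

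Sc5d, the sterol desaturase of the printed promoter, read 1091 and 1010.1 (WT) and 1959, 1824 and 1171 (p75NTR-/-), a log2 difference of 0.62 ± 0.28 (SE). Dhcr7, which makes cholesterol from its last precursor on one branch, read 2373 and 2214 (WT) and 3697, 4164 and 2797 (p75NTR-/-), a log2 difference of 0.61 ± 0.23 (SE). In both genes the labels did not overlap, and the ratio within number 4 was 1.16 for Sc5d and 1.26 for Dhcr7.

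The 5 genes of the sterol sensor did not share one pattern. Insig1, itself a target of SREBP, followed the enzymes with 2079 and 1888 (WT) and 3599, 3433 and 2304 (p75NTR-/-), a log2 difference of 0.62 ± 0.25 (SE). Insig2, its relative that is controlled differently, was the reverse in p75NTR-/- 1 and 2, with 319 and 742 (WT) and 250.3, 232 and 757 (p75NTR-/-). The Insig2 values were high in both libraries numbered 4 and low in WT 1, p75NTR-/- 1 and p75NTR-/- 2, and the log2 difference was -0.46 ± 0.67 (SE). All 5 listed Insig2 transcripts were protein-coding, and the most abundant one held an estimated 56.4% of the gene sum.

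Srebf2, the main activator of the sterol genes, read 4676 and 4067 (WT) and 5381, 6553 and 4660.0 (p75NTR-/-), a log2 difference of 0.33 ± 0.21 (SE). WT 1 exceeded p75NTR-/- 4 by a small margin, so the labels overlapped, and p75NTR-/- 2 was the highest. Srebf1, which mainly serves fatty acid genes, read 4476 and 3579.5 (WT) and 3222, 5030.1 and 3585 (p75NTR-/-), with p75NTR-/- 1 the lowest and p75NTR-/- 2 the highest of the 5 libraries and a log2 difference of -0.05 ± 0.26 (SE). Scap, the escort of both, was lowest in WT 1, with 2068 and 2964 (WT) and 2729.9, 2548 and 2980.2 (p75NTR-/-).

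Of the 4 sterol transport genes, Stard4, a soluble sterol carrier and SREBP target, read 345 and 394 (WT) and 615, 674 and 432 (p75NTR-/-), a log2 difference of 0.61 ± 0.25 (SE) without overlap of the labels. Npc1, the lysosomal membrane protein that hands cholesterol out, was high in WT 1 at 6108 and between 3097 and 3692 in the other 4 libraries. Its log2 difference of -0.39 ± 0.31 (SE) became 0.06 when WT 1 was left out. Npc2, its soluble partner, had the same single high library, with 4392 in WT 1 and 2534 to 3049 in the others.

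Abca1, the exporter that loads cholesterol onto apolipoproteins, lies on chr4:53030787-53159895 (minus strand) and read 9873 and 3550.4 (WT) and 1666, 1701 and 3346 (p75NTR-/-). It had the largest negative log2 difference of the group, -1.48 ± 0.56 (SE), and its labels did not overlap. The values of WT 4 and p75NTR-/- 4 were nearly equal, with a ratio of 0.94, whereas p75NTR-/- 1 was 0.17 of WT 1. Leaving out WT 1 left a log2 difference of -0.75.

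Among the 3 fatty acid synthesis genes, Acly, which supplies cytosolic acetyl-CoA to both pathways, read 5246 and 5088 (WT) and 7742, 7770.4 and 5396 (p75NTR-/-), a log2 difference of 0.41 ± 0.23 (SE) without overlap. Acaca, the acetyl-CoA carboxylase of the committed step, read 2109.9 and 1705 (WT) and 1938, 2327 and 1717 (p75NTR-/-), and its labels overlapped at a log2 difference of 0.06 ± 0.21 (SE). Fasn, the fatty acid synthase, lies on chr11:120805846-120824547 (minus strand) and read 6228 and 3538 (WT) and 7130.0, 9425 and 4532 (p75NTR-/-). Its 2 highest values were in p75NTR-/- 2 and 1, WT 1 came next, and the lowest were in both libraries numbered 4. The log2 difference was 0.52 ± 0.41 (SE), and on the TPM scale the 5 values ran from 25.2 to 189. From the TPM sums the Fasn difference was 1.10, and on normalized counts it was 0.11 without WT 4 and 0.93 without WT 1.

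The 7 genes that desaturate, elongate and activate fatty acids had a median log2 difference of -0.14. Elovl6, the elongase of palmitate, was the 1 gene of these 7 without overlap between the labels, with 462 and 433 (WT) and 831, 894 and 504 (p75NTR-/-), a log2 difference of 0.69 ± 0.30 (SE). Scd1, a stearoyl-CoA desaturase, read 3607 and 3046 (WT) and 3719, 4325 and 3506 (p75NTR-/-), and Scd2, the form that dominates in these cells, read 33164 and 23178 (WT) and 23103, 28861 and 22894 (p75NTR-/-). The highest Scd2 value was in WT 1, and its log2 difference was -0.16 ± 0.24 (SE). Fads1 and Fads2, the desaturases of polyunsaturated fatty acids, were also highest in WT 1.

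Fads2 read 11326 and 7343 (WT) and 6996, 8429.9 and 7633 (p75NTR-/-), a log2 difference of -0.25 ± 0.25 (SE). Fads1 ranged from 4041 in p75NTR-/- 1 to 5426 in WT 1. Elovl5, an elongase of polyunsaturated fatty acids, ranged from 1954 in WT 1 to 2539 in p75NTR-/- 4. Acsl3, which activates fatty acids on lipid droplets, read 4692 and 4434 (WT) and 3026, 3489.9 and 5498 (p75NTR-/-), so that p75NTR-/- 1 and 2 were the 2 lowest and p75NTR-/- 4 the highest library. For Fads1, Elovl5 and Acsl3 the labels overlapped, at log2 differences of -0.14 ± 0.19 (SE), 0.10 ± 0.18 (SE) and -0.24 ± 0.30 (SE).

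The replicate numbers 1 and 4 occur under both labels, which allowed the difference to be read within each number. Within number 1, 16 of the 37 genes were at least 1.5-fold higher in the library labelled p75NTR-/- (background 15.1%), 13 of them sterol enzymes. At least 1.5-fold lower there were 5 of the 37, 0 of them sterol enzymes, against 1489 of the 10786 genes of mean 50 or more. The median log2 difference of the sterol enzymes within number 1 was 0.86. Within number 4, 0 of the 37 reached 1.5-fold (background 0.807%), and the median of the sterol enzymes was 0.21. The difference within number 4 was positive for 33 of the 37 genes (background 49.4%), and for 16 of the 18 sterol enzymes, all but Mvk and Ebp. The largest ratio of a sterol enzyme within number 4 was 1.27 for Mvd, beside 1.27 for Idi1. With 1 library on each side, these differences have no replicate check.

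**Figure D4:**
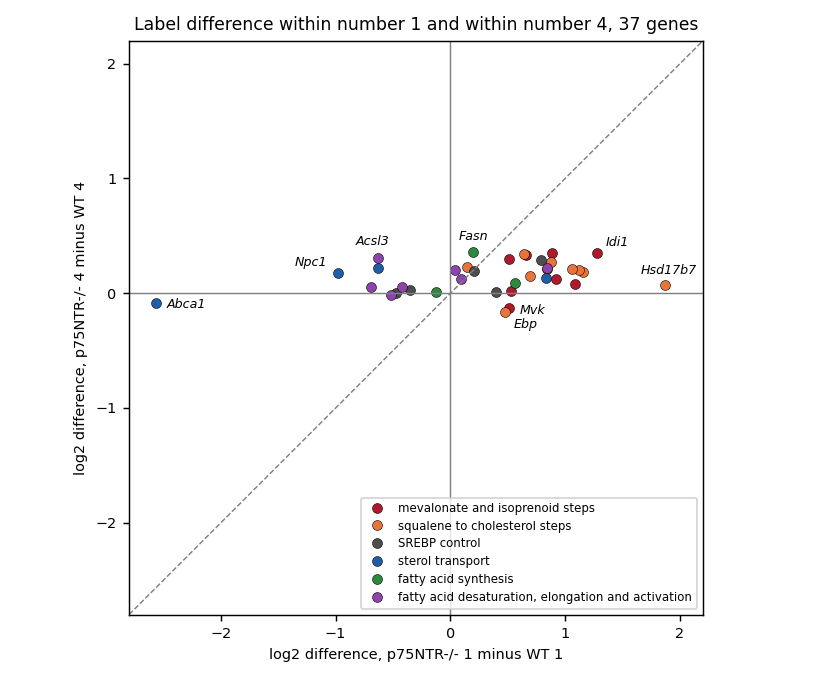
Log2 difference between the labels within number 1 (x axis) and within number 4 (y axis) for the 37 genes, coloured by role, with the dashed line where both are equal. The sterol enzymes spread from 0.15 to 1.87 within number 1 and from -0.16 to 0.35 within number 4.

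Markers of astrocytes also set p75NTR-/- 1 and 2 apart, but were low where the sterol enzymes were high. All 8 astrocyte markers were listed, and all 8 had a negative log2 difference between the labels (background 47.4%). Of the 8, 7 were lowest in p75NTR-/- 1 and 2 (background 19.4%). The summed level of all 8 was 37684 and 38590 normalized counts in p75NTR-/- 1 and 2, and 54208 to 61479 in the other 3 libraries. Gfap, the filament protein of astrocytes, read 241, 680, 11.9, 1.20 and 746 in WT 1, WT 4 and p75NTR-/- 1, 2 and 4, where 1.20 is 1 count. Of the 9 progenitor markers with a mean of 50 or more, 4 had a positive and 5 a negative log2 difference, with a median of -0.02. Nes, an intermediate filament, was the 1 of these 9 that was highest in p75NTR-/- 1 and 2 (background 22.8%). It read 23122 and 17844 there against 8704 to 13413 in the other 3. Sox1 and Msi1, 2 of the 9, were lowest in p75NTR-/- 1 and 2 (background 19.4%). Of the other lists, 6 of 10 oligodendrocyte lineage, 4 of 8 neuronal, 2 of 6 endothelial and 1 of 6 fibroblast or mural markers were listed. The part of cell makeup in the levels of the sterol genes was not tested.

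Lipid genes outside the group were read from 6 further lists of 90 entries, of which 88 were listed and 78 had a mean of 50 or more. limma called 0 of the 78, with a lowest adjusted p of 0.93. Of the 78, 3 had an unadjusted limma p under 0.05, against 134 of the 10786 genes of mean 50 or more. The quasi-likelihood test of edgeR and DESeq2 also called 0. Of all 12588 genes limma called 1 (0.00794%), Gm15446, which is no lipid gene. It called 0 of the 37 genes of the group, with 0 calls by edgeR and DESeq2 as well. Nothing is read from the count for the 37, since they were chosen on this contrast.

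Of the 12 further genes of sterol and isoprenoid synthesis, 7 had a positive log2 difference (background 52.6%) and 5 a negative one (background 47.4%). In p75NTR-/- 1 and 2, 4 of the 12 were highest (background 22.8%) and 1, Cyb5r3, was lowest (background 19.4%). Cyb5r3, which feeds electrons to Sc5d and the desaturases, read 1849 and 2619 in WT 1 and WT 4, and 1552, 1789 and 2599 in p75NTR-/- 1, 2 and 4. Both libraries numbered 4 were high for Cyb5r3, and limma's adjusted p was 0.94.

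Of the 9 genes of lipoprotein uptake and efflux with a mean of 50 or more, 4 had a positive and 5 a negative log2 difference. Apoe, the main apolipoprotein of the brain, read 55071 and 23581 in WT 1 and WT 4, against 4535, 7191 and 25453 in p75NTR-/- 1, 2 and 4. As for Abca1, WT 1 was the highest library, p75NTR-/- 1 and 2 the lowest and the libraries numbered 4 close to each other, and limma's adjusted p was 0.93 at a log2 difference of -1.94 ± 0.83 (SE). Lrp1, an Apoe receptor, read 3749, 1728, 1153, 1683 and 1975 in the same order. Mbtps1, which cuts SREBP, differed little between libraries, with 2193 to 3055 and a log2 difference of 0.13 ± 0.23 (SE).

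**Figure D5:**
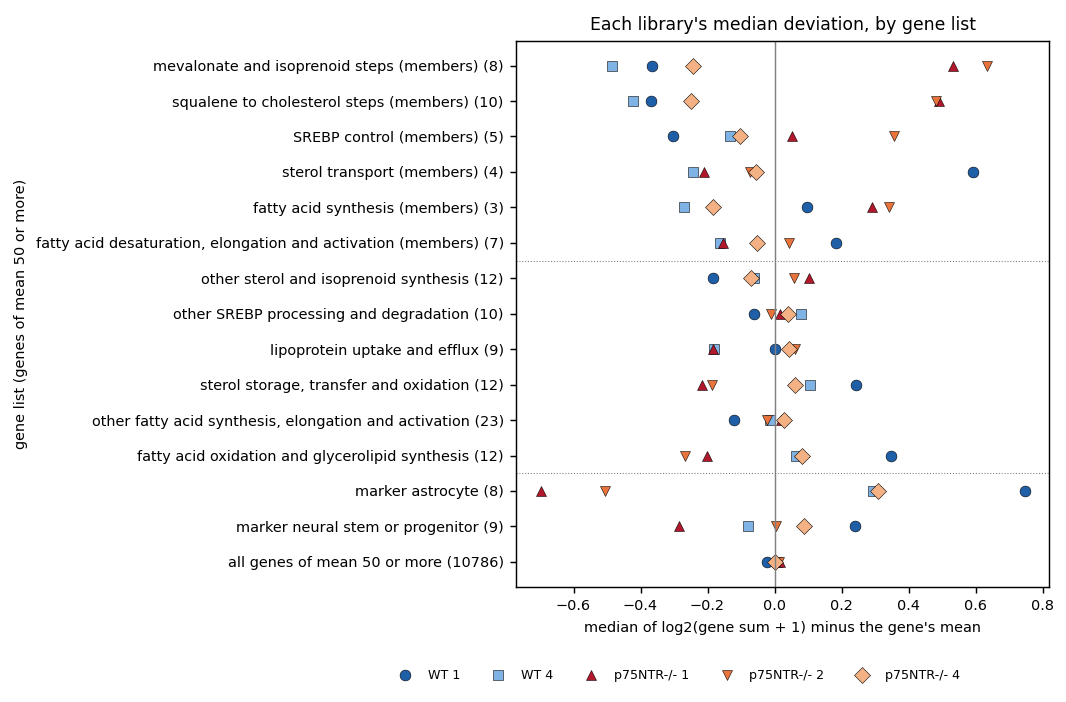
Median over the genes of each list of log2(gene sum + 1) minus the gene's own mean (x axis), 1 point per library, for the 6 role lists of the group, 6 other lipid lists, 2 marker lists and all genes (y axis, number of genes of mean 50 or more in parentheses). The mevalonate list reaches 0.53 and 0.64 in p75NTR-/- 1 and 2, and the astrocyte markers reach -0.70 and -0.51 in the same libraries.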

How the data were processed

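RNA was sequenced from 5 NSPC samples, 2 labelled WT and 3 labelled p75NTR-/-, with 500 ng RNA per stranded mRNA library. The authors quantified the reads with Salmon 0.10.2 against the GRCm38.p6 transcriptome and normalized them with DESeq2 1.22.0 in R 3.6.1, versions also given in the submitters' processing notes. For each transcript the authors deposited a signal, its count over the library's DESeq2 size factor plus 0.5, and a second signal in TPM, relative to transcript length. The deposited log2 fold change, p-value and mean columns hold the authors' own comparison and were not used. Of the columns with values of single samples, 0 stayed unused.

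Of 22530 lines, 303 repeat a transcript and were dropped. The 22227 remaining transcripts, less 0.5, were summed to 12588 symbols or identifiers, of which 10786 had a mean of 50 or more. In every library 100% of the values were whole multiples of one step within 0.1 of the step, which gave the counts back, and 0 counts allow up to 2.94 to 3.60 normalized counts. These limits cover counting error only. Estimated counts of transcripts that share sequence divide reads between them, so gene sums were used for every comparison, and values of single transcripts are estimates.

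The genes of the group and the other lists were chosen with earlier results of these data known. limma 3.58.1 (lmFit and eBayes on log2(gene sum + 1), label only, all 5 libraries, Benjamini-Hochberg over all genes) called a gene at a mean of 50 or more, a fold of 1.5 or more and an adjusted p under 0.05. edgeR 4.0.16 and DESeq2 1.42.0 on recovered counts, other pseudocounts (0.5 and 10) and filters (a mean of 10, none), TPM, single transcripts, a replicate block and each library left out were alternatives. All 37 genes are named, as are other lipid genes that were called or were among the 2 most abundant of their list, plus Ngfr; some genes that this rule names are not reported here. Counts were simulated with a dispersion of 0.02 for every gene and 200 of 12588 genes changed. On these, limma called 1, 23, 50 and 50 of 50 genes changed 1.5-, 2-, 4- and 8-fold, with 0 false among 124 calls. The simulated libraries of a label were independent, without the split of p75NTR-/- 1 and 2 from p75NTR-/- 4. These shares are therefore not the detection rates of the real contrast. Positions are from GENCODE on GRCm38, and promoter windows from RefSeq, GRCm38.p6. Computation used R 4.3.3, Python 3.11.15, pandas 2.3.3, numpy 2.4.6, scipy 1.17.1 and matplotlib 3.10.9.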

Additional observations from a re-analysis of the deposited data

How the results depend on the processing

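limma called 1 gene of all tested, and this count was 0 with edgeR, 7 with DESeq2, 0 on TPM sums, 0 with the replicate block and 0 without both libraries numbered 4, and it ranged from 0 to 1 when 1 library was left out. Genes of the group and the other lipid genes were called 0 times under each of these settings. The median log2 difference of the 37 genes was 0.17 between the libraries numbered 4 alone and that of the sterol enzymes 0.21, settings chosen after seeing the data. With the replicate block it was 0.28 for the 37 genes, and 27 of 37 were positive; the 2 pairs with a shared number had deviations that correlated at 0.26 and 0.48, but with 2 WT libraries the WT deviations mirror each other, so these values cannot show whether a number marks a shared batch, and the labels do not say. Leaving out 1 library gave medians from 0.28 (without p75NTR-/- 2) to 0.62 (without p75NTR-/- 4) for the 37 genes and from 0.53 to 0.90 for the sterol enzymes. Another pseudocount, filter, tool, centring, the TPM sums and the single highest transcript changed the sign of 0 of the 37 genes. Leaving out WT 1 changed the sign of 8, leaving out WT 4 that of 3 (Tm7sf2, Insig2 and Acaca), and each p75NTR-/- library that of 1. An NF-Y box on the plus strand alone was present for 44.8% of the 29 matched genes, fewer by the construction of that search. Depth put no gene of the group near the limit of 0 counts, since the lowest recovered count of any of them was 136. The causes of the changes were not tested.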

Other observations

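The catabolic and storage side of lipid metabolism, which shares no gene with the group, held 12 genes of fatty acid oxidation and glycerolipid synthesis with a mean of 50 or more. Of these, 11 had a negative log2 difference between the labels, with a median of -0.29 (47.4% of the 10786 genes of mean 50 or more were negative), and 9 of the 12 were lowest in p75NTR-/- 1 and 2 (19.4% of all). limma called 0 of them, with a lowest adjusted p of 0.93 and 0 at an unadjusted p under 0.05, and edgeR and DESeq2 called 0 as well. Acadl, a mitochondrial acyl-CoA dehydrogenase, read 8842 and 6631 in WT 1 and WT 4, and 5839.8, 5669 and 7750.1 in p75NTR-/- 1, 2 and 4. Hadhb, a subunit of the mitochondrial trifunctional protein, read 7834, 7273.5, 6528, 5347 and 7125 in the same order. Within number 4 the median of this list was 0.02.

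Sterol storage, transfer and oxidation held 12 genes of mean 50 or more, 11 of them with a negative log2 difference (median -0.18), and limma called 0, with 0 at an unadjusted p under 0.05 and 0 calls by edgeR and DESeq2. Soat1, which esterifies cholesterol for storage, read 1753 and 2087 in WT 1 and WT 4, and 787, 948 and 2236 in p75NTR-/- 1, 2 and 4. Osbpl9, a lipid transfer protein, read 1686, 1203, 767, 944 and 1158 in the same order. The 23 further genes of fatty acid synthesis, elongation and activation divided into 12 with a positive and 11 with a negative log2 difference. Fabp7, the fatty acid binding protein of progenitors, was even across the libraries at 35613 to 39744, and Fabp5, a relative, read 8698 to 13290.3.

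The 3 listed transcripts of Srebf1 held an estimated 56.1%, 32.2% and 11.7% of its gene sum, a division that is uncertain where they share sequence. The leading one read 2399, 1988, 1601, 3173 and 1991 in WT 1, WT 4 and p75NTR-/- 1, 2 and 4. The second read 1548, 1238, 1182, 1329 and 1113 in the same order.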
